A study of Mus musculus with 16 samples.

Results

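The semaphorin, ephrin, Slit and netrin families and their receptors were followed across 4 groups of mouse granulosa cells (mGCs). Members were chosen by name and family, with earlier results of these data known. Taken were the protein-coding genes called Sema3 to Sema7, Plxna to Plxnd, Nrp1 and Nrp2, Efna, Efnb, Epha, Ephb, Slit1 to Slit3, Robo1 to Robo4, Ntn1, Ntn3, Ntn4, Ntn5 and Unc5a to Unc5d. This gave 68 genes of the 57010 in the count tables, of which 21848 were protein-coding. They were 20 semaphorins, 9 plexins, 2 neuropilins, 8 ephrins, 14 Eph receptors, 3 Slits, 4 Robo receptors, 4 netrins and 4 Unc5 receptors.

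These families were named for steering growing axons, and they also guide blood vessels and shape contacts between epithelial cells. Semaphorins bind plexins, and most secreted class 3 semaphorins need a neuropilin as co-receptor. Ephrins are held in the membrane of one cell and bind Eph receptor tyrosine kinases on its neighbour. Secreted Slits bind Robo receptors, and netrins bind Dcc, neogenin and the Unc5 receptors. In the ovary, granulosa cells surround the oocyte and make estrogen, and they turn into luteal cells after ovulation while vessels grow into the former follicle.

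All mice were ICR females operated on at 6 weeks of age. Con-mGC libraries (n = 5) came from sham-operated mice, and EM-mGC libraries (n = 5) from an endometriosis model in which donor endometrium was sutured to the intestinal mesentery, with estradiol at 200 µg/kg every other day for 14 days. Both were prepared from fresh cells. In the mice of all groups, those of the cultured cells included, gonadotropin was used to induce ovulation at day 30. PBS libraries (n = 3) came from mGCs of endometriosis mice kept for 24 h in DMEM/F12 medium with 5% fetal bovine serum, and EET libraries (n = 3) from such cells given in addition 100 nM 14,15-EET, a lipid made from arachidonic acid by epoxygenases, for 24 h. In a second account of this experiment a first 24 h of culture came before the 24 h with 14,15-EET or PBS, so the full time in culture is not settled here. The cultured cells came from other endometriosis mice than the fresh ones, and no cultured sham cells were included. Total counts were 14462398 to 15999234 in Con-mGC, 14229123 to 15072324 in EM-mGC, 21384686 to 27728777 in PBS and 23823566 to 29482826 in EET.

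The fresh libraries carried the granulosa genes Foxl2 (212 ± 21.5 CPM in Con-mGC, SD, n = 5), Fshr (106 ± 8.19) and Cyp19a1 (231 ± 36.4), where CPM are counts per 1000000 counts of a library, with TMM scaling over all 16 libraries. They also carried oocyte genes such as Gdf9 (162 ± 58.1 CPM in Con-mGC), endothelial genes such as Kdr (46.5 ± 9.34) and the theca gene Cyp17a1 (180 ± 41.0). In PBS the regulator Foxl2 stood at 147 ± 10.0 CPM (n = 3), whereas Fshr was at 5.18 ± 0.480, Cyp19a1 at 0.170 ± 0.191 and Cyp17a1 at 0.0360 ± 0.0623. The label of granulosa cells therefore held for Foxl2 in all groups, but the fresh libraries were mixtures, and in bulk RNA fewer cells of a type and less RNA per cell cannot be told apart. EM-mGC-2 had the highest granulosa marker total of the fresh libraries (25021 summed CPM over 12 genes) and EM-mGC-4 the lowest (7741), and EM-mGC-3 carried 16016 summed CPM of red blood cell genes. EM-mGC-3 also had 21.8% of its counts on mitochondrial genes, against 6.76% to 11.1% in the other fresh libraries and 1.18% to 1.64% in the cultured ones.

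Most guidance genes were detected in fresh mGCs, and few of them reached high levels. A mean of at least 1 CPM was reached by 59 members in Con-mGC, 59 in EM-mGC, 52 in PBS and 54 in EET. At least 100 CPM were reached by 9, 9, 11 and 11 members. No member was without a read in all 16 libraries, and Epha10 and Epha6 had no read in the PBS or EET libraries.

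**Figure D1:**
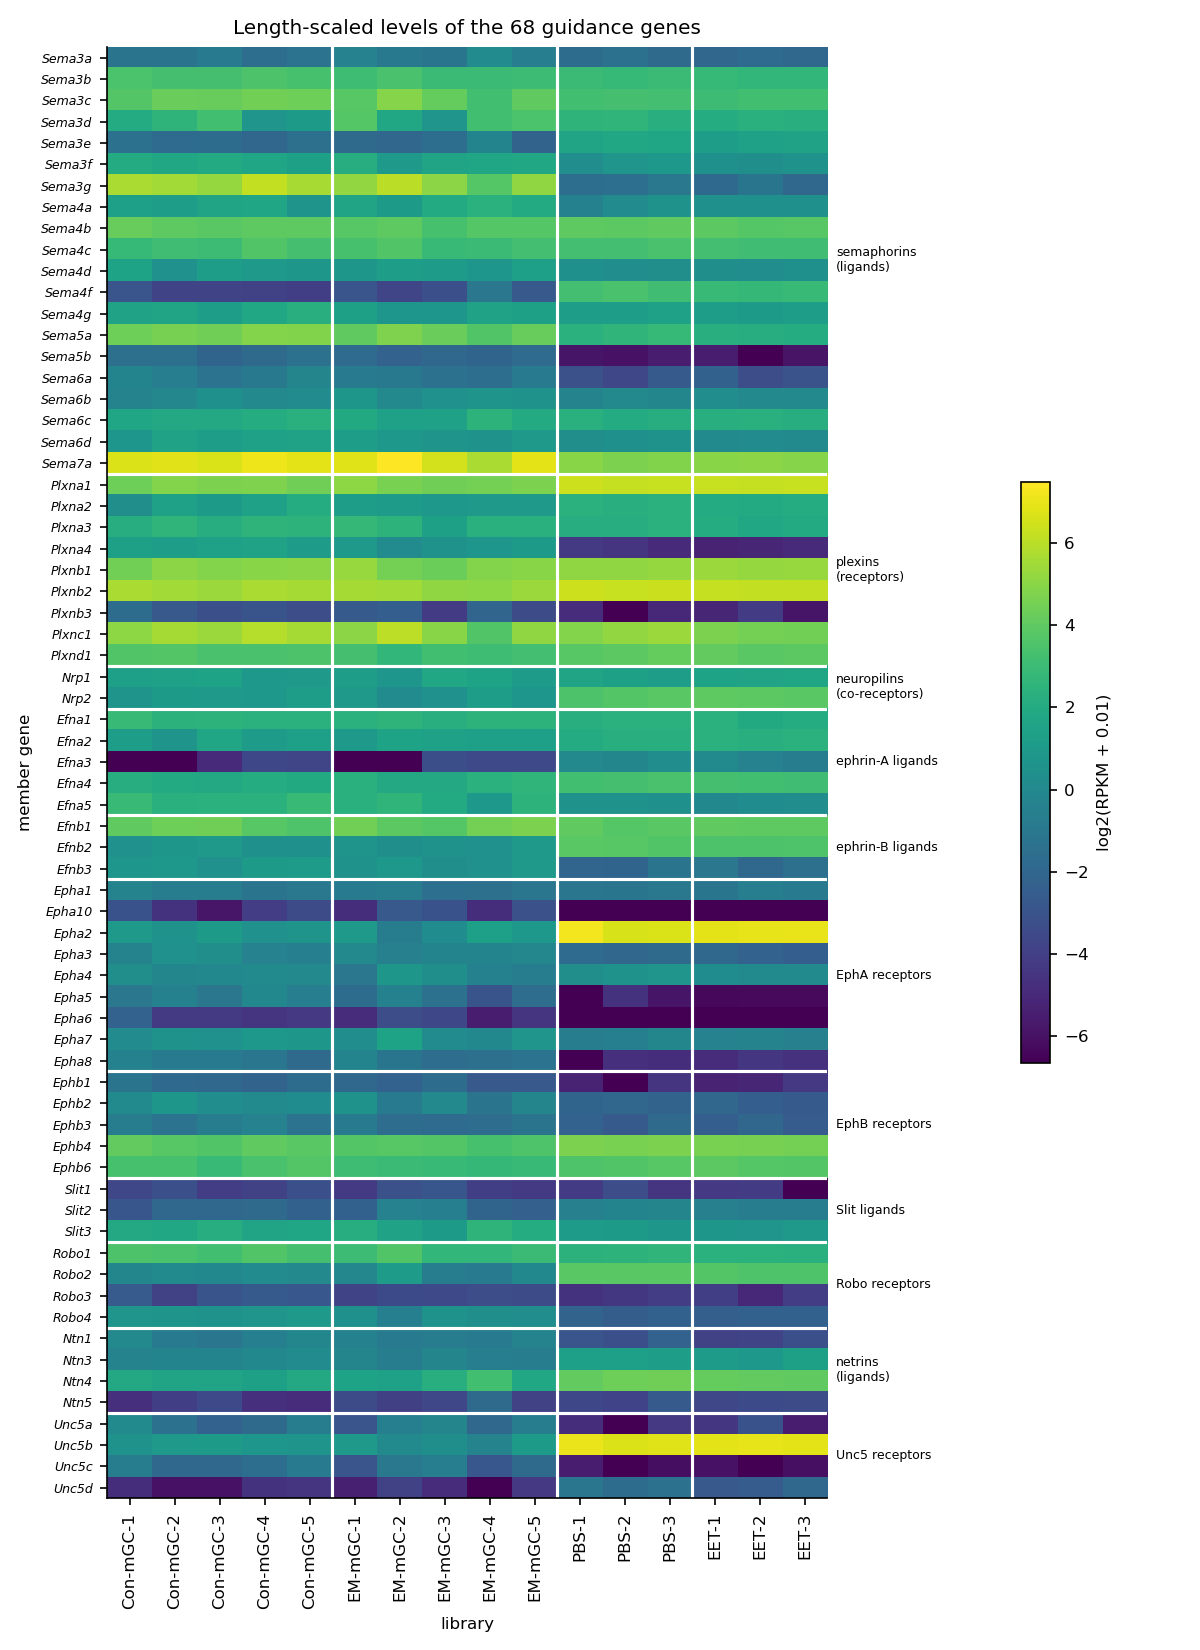
Length-scaled levels of the 68 members (rows, grouped by role) in the 16 libraries (columns), as log2(RPKM + 0.01), where RPKM are CPM divided by exon length in kilobases. Sema7a was the brightest ligand in the fresh libraries, and Epha2 and Unc5b changed from low to among the highest rows in the cultured libraries.

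Among the ligands, levels per exon length (RPKM) were highest for Sema7a, a membrane-anchored semaphorin that also binds integrins, at 117 ± 13.8 RPKM in Con-mGC (SD, n = 5). It made up 42.9% of the summed semaphorin RPKM, and the secreted Sema3g followed at 51.2 ± 12.6. Among the other ligands in Con-mGC, Efnb1 stood at 16.8 ± 3.86 RPKM, Efna5 at 6.12 ± 1.39, Slit3 at 3.56 ± 0.584 and Ntn4 at 3.20 ± 0.495. Efna5 and Efna1 (5.78 ± 1.11 RPKM) did not differ beyond their spread, and their order turned when the longest transcript replaced the union of exons as length.

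Among the receptors in Con-mGC, Plxnb2, a receptor of class 4 semaphorins, was highest at 47.3 ± 4.17 RPKM. It was followed within its spread by Plxnc1, the receptor of Sema7a, at 46.1 ± 9.68. The other family leaders were Ephb4 at 14.7 ± 1.85 RPKM, Robo1 at 10.7 ± 1.23, Nrp1 at 2.37 ± 0.451, Unc5b at 1.74 ± 0.233 and Epha2 at 1.71 ± 0.295. Nrp1 overlapped with Nrp2, which was ahead of it in Con-mGC-4 and Con-mGC-5. Sema7a and its receptor Plxnc1 were thus the leading ligand and one of the leading plexins of fresh mGCs. The EphA family had no dominant member: Epha2 held 24.0% of its RPKM, and Epha7, at 1.52 ± 0.291, overlapped with it and came ahead when the longest transcript was the length.

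The comparison of EM-mGC with Con-mGC asked whether the endometriosis model altered the guidance genes of fresh mGCs. Estradiol is stated for the model mice and not for the sham mice, so lesions and estradiol cannot be told apart in it. No member passed the test. Of 62 members with enough counts, 0 had an adjusted p under 0.05 in edgeR's quasi-likelihood test, as had 0 of all 17229 genes tested (0%). DESeq2 also called 0 members, against 116 genes in all. Without Con-mGC-3, edgeR called 46 genes in all, 44 of them higher in EM-mGC, and again 0 members. At an unadjusted p under 0.05 stood 12 members against 9.44% of all genes, with 10 members lower in EM-mGC (4.22% of all genes) and 2 higher (5.22%). The 12 became 6 without Con-mGC-4, 7 without Con-mGC-5 or EM-mGC-4, 8 without EM-mGC-3 or EM-mGC-5 and 17 without EM-mGC-2, while the number among all genes, 1626, ran from 930 to 2515.

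The lower values lay mostly among the receptors. Of the 62 members, 44 had a log2 fold change below 0, against 51.8% of all genes, and this count ran from 38 to 45 when single libraries were left out, with 40 of 63 without EM-mGC-3. Of the 31 receptors and co-receptors tested 26 were below 0, including 8 of 9 plexins and 5 of 5 EphB receptors. Of the 31 ligands 18 were below 0. The median log2 fold change was −0.24 for the receptors, −0.09 for the ligands and −0.01 for all genes tested. These counts describe genes that share libraries and carry no test.

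**Figure D2:**
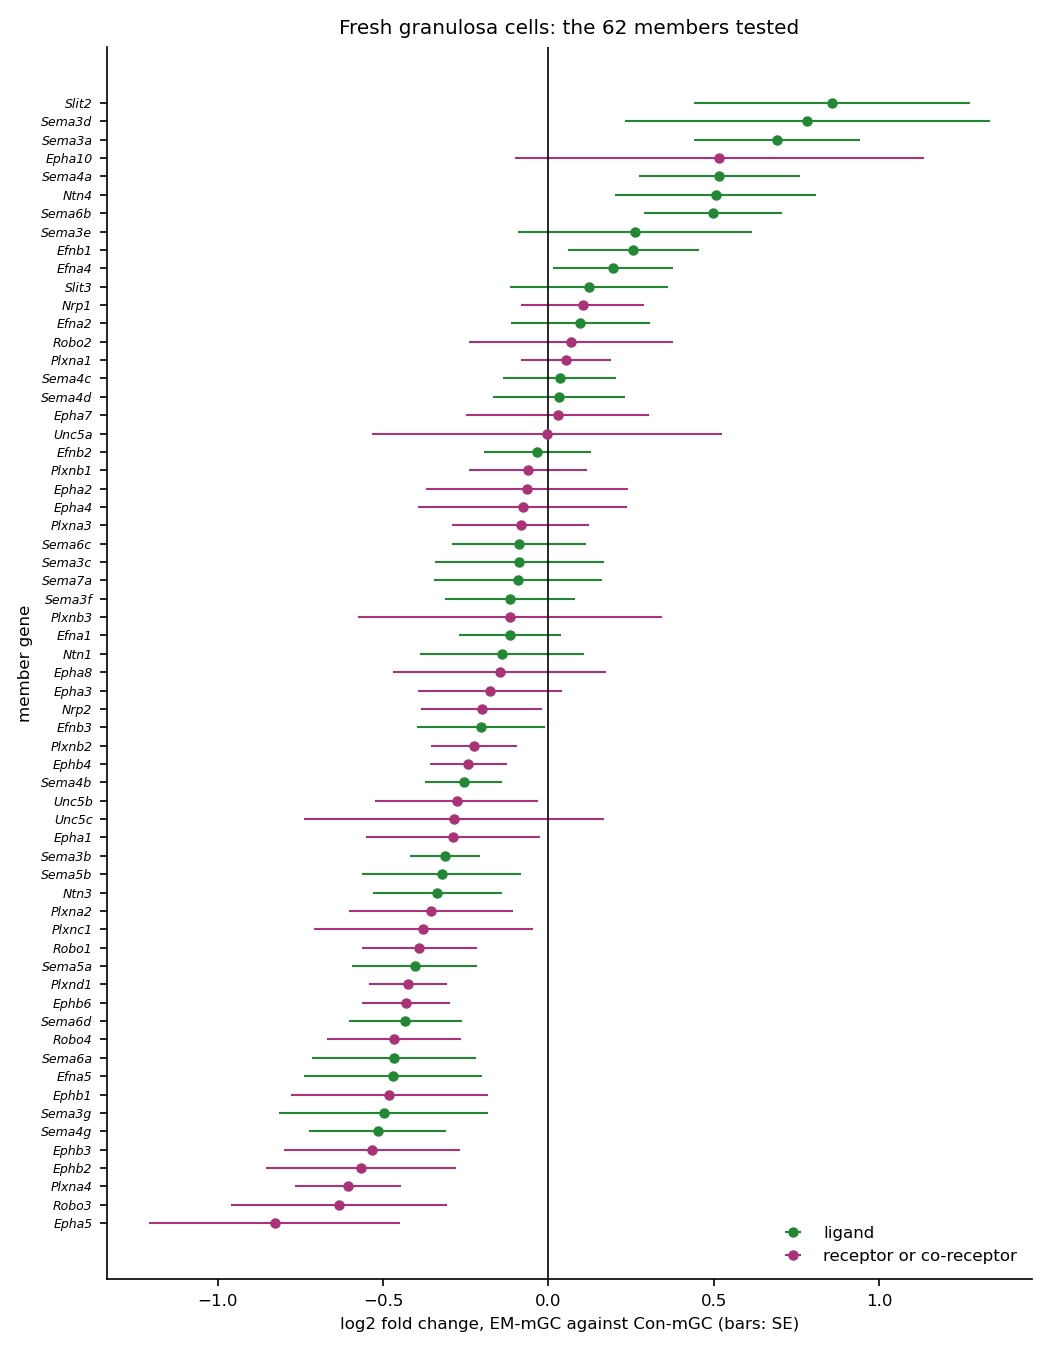
Log2 fold change (x axis) of each of the 62 members tested in EM-mGC against Con-mGC, with its SE as a bar, and ligands and receptors in separate colours. The values run from −0.83 for Epha5 to 0.86 for Slit2, and none passed the test.

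In 3 members the EM-mGC values lay wholly below the Con-mGC values, against 0.813% of all genes that were lower without overlap. Plxna4, a receptor of class 3 and class 6 semaphorins, was at 36.8, 33.3, 38.6, 39.8 and 30.002 CPM in Con-mGC and at 27.8, 15.8, 20.9, 23.6 and 29.1 CPM in EM-mGC. EM-mGC-5 and Con-mGC-5 nearly met, and EM-mGC-2 was lowest. The log2 fold change of Plxna4 was −0.61 (SE 0.16, adjusted p = 0.376 in edgeR).

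Plxnd1, the endothelial receptor of Sema3e, was at 91.8, 93.5, 79.4, 78.9 and 83.7 CPM in Con-mGC and at 73.4, 47.2, 66.0, 61.4 and 70.1 CPM in EM-mGC, a log2 fold change of −0.43 (SE 0.12, adjusted p = 0.383). All 5 EM-mGC libraries were below the lowest Con-mGC library, with EM-mGC-2 again lowest. Robo4, the Robo receptor of endothelial cells, was at 8.83, 8.37, 7.75, 8.74 and 10.3 CPM in Con-mGC and at 7.17, 3.63, 7.71, 6.91 and 6.47 CPM in EM-mGC, a log2 fold change of −0.47 (SE 0.20, adjusted p = 0.518). Con-mGC-3 and EM-mGC-3 were almost level for Robo4.

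The other members with the smallest p overlapped between the groups. Ephb6, an Eph receptor without kinase activity, averaged 38.8 ± 7.21 CPM in Con-mGC and 28.8 ± 2.17 in EM-mGC, with a log2 fold change of −0.43 (SE 0.13, adjusted p = 0.433). The secreted Sema3b averaged 50.8 ± 3.43 and 40.9 ± 5.47 CPM, with −0.31 (SE 0.10, adjusted p = 0.458), and EM-mGC-2 was at 50.5 CPM. The membrane-bound Sema6d averaged 26.0 ± 5.06 and 19.3 ± 3.97 CPM, with −0.43 (SE 0.17, adjusted p = 0.503). Sema3a, the classical repellent of axons, went the other way, at 5.94 ± 1.15 CPM in Con-mGC and 9.58 ± 3.68 in EM-mGC, with a log2 fold change of 0.69 (SE 0.25, adjusted p = 0.474). EM-mGC-4 was highest for Sema3a at 15.4 CPM, and without it the log2 fold change was 0.45.

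Several lists of markers of other cell types lay mostly to one side of 0 in the same comparison. None of their genes passed after adjustment. All 13 endothelial genes had a log2 fold change below 0 and 3 of them an unadjusted p under 0.05. Their summed level was 283, 281, 233, 239 and 235 CPM in Con-mGC and 248, 136, 233, 169 and 200 in EM-mGC, with Kdr the most abundant. For stroma and fibroblast genes, 8 of 10 were below 0, and their total was 1607, 1566, 1513, 1543 and 1645 CPM in Con-mGC and 1404, 607, 1058, 1065 and 1130 in EM-mGC, with Col3a1 the most abundant. All 7 neutrophil genes tested were above 0 with an unadjusted p under 0.05, and 0 passed after adjustment. The neutrophil total was 9.36, 8.08, 56.1, 11.5 and 6.36 CPM in Con-mGC and 81.2, 40.2, 67.3, 189 and 166 in EM-mGC, with S100a9 the most abundant. Of 10 smooth muscle and pericyte genes 8 were below 0, 4 of them with an unadjusted p under 0.05 and 3 lower without overlap. Their total was 440, 339, 339, 294 and 360 CPM in Con-mGC and 324, 159, 354, 199 and 274 in EM-mGC, with Acta2 the most abundant. All 12 macrophage and leukocyte genes were above 0, 5 of them with an unadjusted p under 0.05. Their total was 274, 284, 469, 235 and 263 CPM in Con-mGC and 404, 320, 884, 590 and 497 in EM-mGC, with Lyz2 the most abundant. The granulosa, oocyte and red blood cell lists also lay mostly to one side, with 0 genes at an unadjusted p under 0.05. Of the granulosa genes 10 of 12 and of the oocyte genes 8 of 9 tested were below 0. All 5 red blood cell genes tested were above 0. No gene of these lists was without a read in the fresh libraries. The part of these cells and of the mitochondrial share in the results above was not tested.

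Across the 10 fresh libraries, each of the 62 members was set against each of the 11 marker totals on a log2 scale, in a search made after the values had been seen. Of the 682 relations, 11 had an adjusted p under 0.05 by Pearson's r (permutation test, 100000 permutations, two-sided), and 0 by Spearman's rho, whose smallest adjusted p was 0.0818. They are therefore given as values. The permutations ran over all 10 libraries without regard to group, so a difference between groups can enter each r and its p. Plxnd1 followed the stroma total with r = 0.957 and rho = 0.927 (permutation p = 4e-05 and 0.00032, adjusted 0.0273 and 0.0818), and r was 0.889 without the 2 farthest libraries, EM-mGC-2 and EM-mGC-3, and 0.900 with both groups centred. It followed the endothelial total with r = 0.937 and rho = 0.818 (permutation p = 0.0002 and 0.00616, adjusted 0.0382 and 0.200), and with 0.776 without EM-mGC-2 and EM-mGC-4. The other 2 members without overlap also passed by Pearson's r against the stroma total, Plxna4 with r = 0.906 and Robo4 with r = 0.932 (adjusted permutation p = 0.0447 and 0.0477), but not by rho (0.770 and 0.903, adjusted 0.252 and 0.10). The stroma total itself did not overlap between the groups, so part of the pooled r of these 3 members is the difference between groups. With both groups centred r was 0.779 for Plxna4 and 0.882 for Robo4, and it was 0.725 and 0.851 without EM-mGC-2 and EM-mGC-3.

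Ephb6 ran against the neutrophil total, with r = −0.928 and rho = −0.879 (permutation p = 0.00025 and 0.00144, adjusted 0.0382 and 0.109), and r was −0.915 without Con-mGC-2 and Con-mGC-5 and −0.843 with both groups centred. The netrin receptor Unc5c ran with the oocyte total, with r = 0.920 and rho = 0.903 (permutation p = 0.0002 and 0.00088, adjusted 0.0382 and 0.10), and r was 0.871 without EM-mGC-1 and EM-mGC-4. Sema3g ran with the granulosa total, with r = 0.918 and rho = 0.782 (permutation p = 0.00078 and 0.0106, adjusted 0.0484 and 0.243), and r was 0.821 without EM-mGC-2 and EM-mGC-4. The remaining 4 relations were negative, of Plxnb2, Sema4b, Robo1 and Sema3b with the macrophage and leukocyte total, with r between −0.902 and −0.891. Their rho lay between −0.927 and −0.842 and did not pass (adjusted permutation p = 0.0818 to 0.154), and r was −0.854 to −0.791 with both groups centred and −0.858 to −0.745 without EM-mGC-3 and EM-mGC-4. The macrophage and leukocyte total was higher in all 5 EM-mGC libraries than in each Con-mGC library other than Con-mGC-3.

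**Figure D3:**
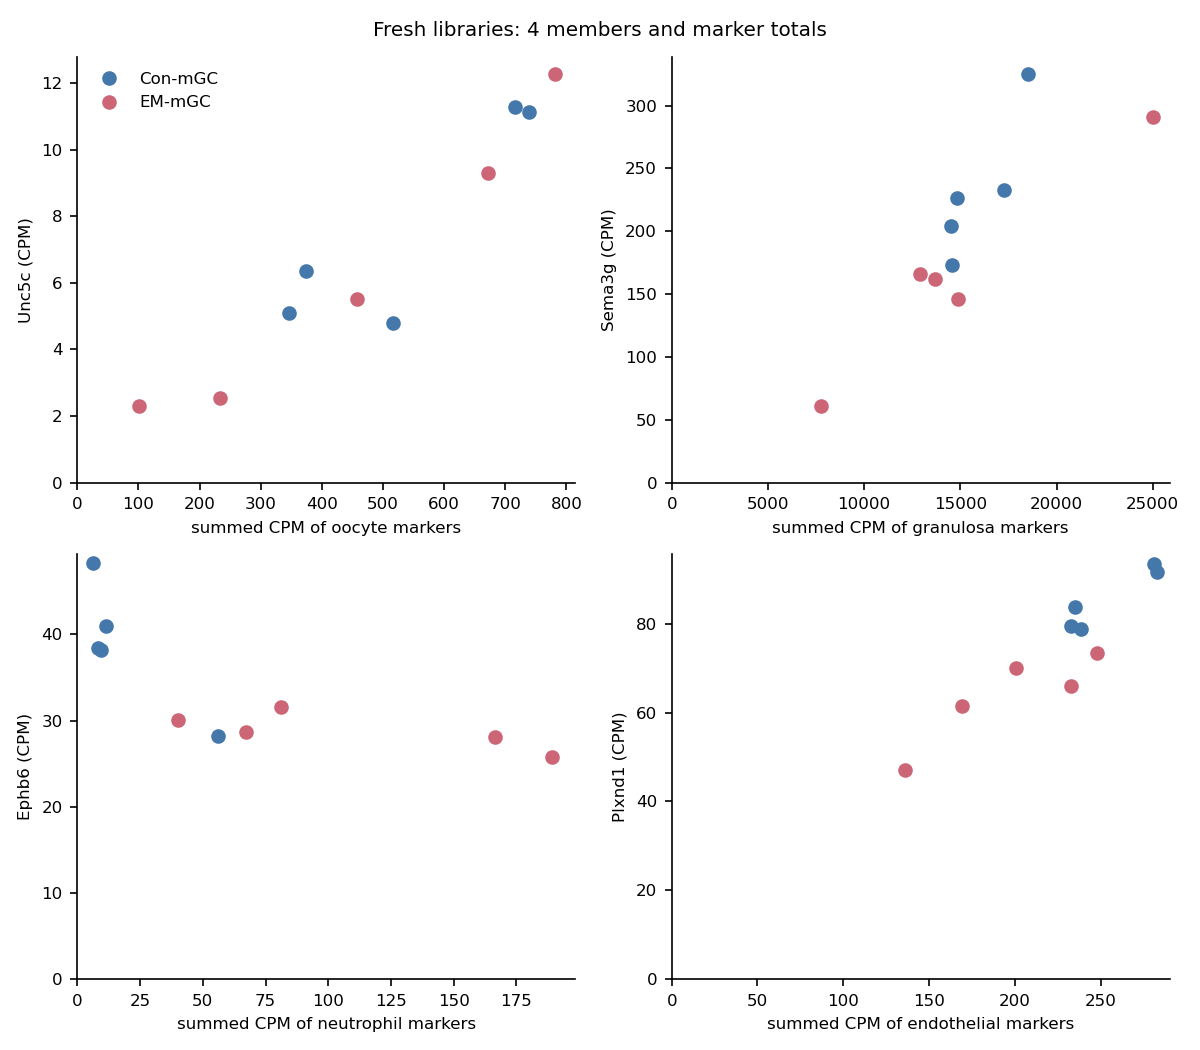
Levels (CPM, y axes) of Unc5c, Sema3g, Ephb6 and Plxnd1 in the 10 fresh libraries against summed CPM of oocyte, granulosa, neutrophil and endothelial markers (x axes), with Con-mGC and EM-mGC in separate colours. Both groups lie along the same band for Unc5c, and EM-mGC-2 has the lowest Plxnd1 and the lowest endothelial total.

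The comparison of EET with PBS asked how 14,15-EET acted on cultured mGCs of endometriosis mice. Of 55 members with enough counts, 5 were called by edgeR, all of them lower with EET: Plxnc1, Sema4f, Sema5a, Robo2 and Plxna2. That is 9.09% of the members tested, against 1.22% of all 15050 genes, of which 0.724% were called lower. The drops were small, at most 1.47-fold. DESeq2 called the same 5 members. The calls did not hold when single libraries were left out: 0 members were called without EET-2 or without EET-3, where the calls among all genes also fell from 184 to 61 and 48. The log2 fold changes kept their direction, and over all 6 omissions that of Plxnc1 ran from −0.66 to −0.46, of Sema5a from −0.55 to −0.35, of Sema4f from −0.50 to −0.37, of Plxna2 from −0.32 to −0.25 and of Robo2 from −0.26 to −0.21. Without EET-1 the calls were Plxnc1, Sema4f and Sema5a. Without PBS-3 they were Plxnc1, Sema4f and, higher with EET, Nrp2. Without PBS-2 there were 6 calls, all lower, and without PBS-1 there were 9, with Epha2 and Sema7a higher. Among all genes 122 (0.797%) were called without EET-1 and 144 (0.941%) without PBS-3. The calls among all genes rose to 436 (2.84%) without PBS-2 and to 350 (2.28%) without PBS-1. All 5 members were among the calls without PBS-1 and without PBS-2.

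Of the 5 called members 2 were ligands. Sema4f (GRCm39 chr6:82888866-82916750, minus strand), a membrane-bound semaphorin of class 4, was at 50.7, 56.3 and 47.6 CPM in PBS and 39.3, 35.5 and 39.2 in EET. All EET libraries were lower, with a log2 fold change of −0.44 (SE 0.08, adjusted p = 0.0137 in edgeR). Sema5a (chr15:32244956-32696487, plus strand), a semaphorin with thrombospondin repeats, was at 95.2, 115 and 129 CPM in PBS and 86.4, 81.5 and 79.6 in EET, with a log2 fold change of −0.45 (SE 0.08, adjusted p = 0.0197). PBS-1 was the lowest PBS library for Sema5a and still above EET-1.

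The other 3 were receptors. Plxnc1 (chr10:94626728-94780697, minus strand) was at 246, 299 and 335 CPM in PBS and 216, 195 and 184 in EET, with a log2 fold change of −0.56 (SE 0.09, adjusted p = 0.00926 in edgeR). Its ligand Sema7a was at 102, 86.1 and 91.6 CPM in PBS and 102, 107 and 99.9 in EET, so that these groups met, and it was not called (log2 fold change 0.14, adjusted p = 0.397). Plxna2 (chr1:194300526-194499177, plus strand), a receptor of semaphorins of classes 3 and 6, was at 87.3, 82.5 and 87.8 CPM in PBS and 71.0, 67.3 and 72.8 in EET. Its log2 fold change was −0.28 (SE 0.06, adjusted p = 0.0288).

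Robo2 (chr16:73688727-74208713, minus strand), a receptor of Slits, was at 245, 249 and 249 CPM in PBS and 219, 205 and 207 in EET. The PBS libraries lay close together, and the log2 fold change was −0.23 (SE 0.05, adjusted p = 0.0272). The Slit ligand Slit2 was also lower without overlap, at 17.9, 20.9 and 21.3 CPM in PBS and 17.5, 15.6 and 16.03 in EET, and did not pass (−0.29, adjusted p = 0.177). Epha4, a receptor of both ephrin classes, had the next smallest p, at 10.0, 12.02 and 13.3 CPM in PBS and 9.19, 8.50 and 8.16 in EET (−0.45, SE 0.11, adjusted p = 0.0901).

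**Figure D4:**
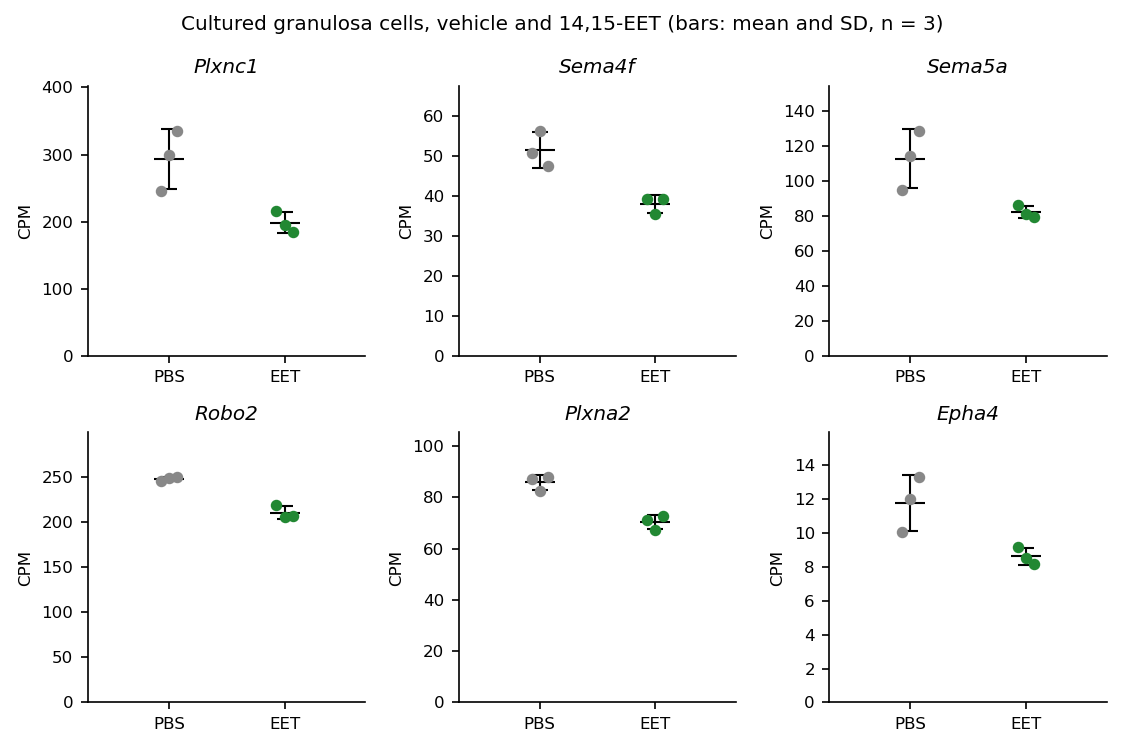
CPM of Plxnc1, Sema4f, Sema5a, Robo2, Plxna2 and Epha4 in each PBS and EET library, with mean and SD (n = 3) and the y axes starting at 0. In all 6 panels each EET library lies below each PBS library, and Epha4 was not called.

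Lower values with EET reached beyond the called members. Of 55 members, 38 had a log2 fold change below 0, against 49.6% of all genes, and 23 an unadjusted p under 0.05, against 12.4%. The groups did not overlap for 20 members, against 16.6% of all genes, and 17 of these were lower with EET, against 8.85%. The 3 that were higher without overlap were Nrp2 (155 ± 18.1 CPM in PBS and 179 ± 7.22 in EET), Efna2 and Sema6b, and none of them was called, although Nrp2 was called higher without PBS-3 and with no filter on low counts. Among the lower ones were the ligands Efnb2 (94.3 ± 6.84 and 79.8 ± 1.58 CPM), Sema3e (29.6 ± 1.74 and 24.5 ± 1.80) and Ntn1 (0.892 ± 0.358 and 0.456 ± 0.141). With 3 against 3, groups that do not overlap are frequent, as the share among all genes shows.

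Other genes of the pathway moved both ways. Of 53 other guidance ligands and receptors, 33 were tested and 3 called (9.09%, against 1.22% of all genes): the neurotrophin Bdnf (53.7 ± 7.17 CPM in PBS and 31.9 ± 0.521 in EET) and the hedgehog co-receptor Boc (99.6 ± 6.80 and 71.8 ± 2.99) fell, and the chemokine Cxcl12 (303 ± 35.5 and 423 ± 14.3) rose. Of 100 cytoplasmic effectors, 96 were tested and 3 called (3.12%): Dpysl3, a collapsin response mediator that links semaphorin receptors to the cytoskeleton, fell (190 ± 13.3 and 144 ± 1.91 CPM), and Enah, an actin regulator (351 ± 25.0 and 431 ± 8.69), and Elmo1, which activates Rac with a Dock protein (22.9 ± 3.64 and 31.7 ± 1.05), rose. Among the marker lists, Inha fell, from 2847 ± 245 to 2212 ± 206 CPM (adjusted p = 0.043 in edgeR), as did the neuronal Stmn2 (6.33 ± 1.78 and 2.82 ± 0.237) and Tubb3, the stromal Ogn (11.4 ± 2.51 and 6.68 ± 0.216), the epithelial Krt18 and the muscle gene Cnn1 (10.9 ± 1.45 and 6.67 ± 0.317). No other marker was called. All 6 glia and neuron genes tested were below 0, whereas the other lists with a called marker held genes of both directions. In the muscle and pericyte list 4 of 8 genes tested were above 0, with Myh11 (5.50 ± 1.00 and 7.997 ± 1.34 CPM), Actg2 and Pdgfrb higher and Cnn1, Acta2 and Notch3 lower without overlap. Of the 3 stroma genes with an unadjusted p under 0.05, Lum (0.286 ± 0.107 and 0.855 ± 0.201 CPM) and Col1a2 (18.4 ± 2.81 and 25.9 ± 4.67) were higher. In the epithelial list 5 of 7 genes were below 0, and Krt19 was higher without overlap. Of the 6 granulosa genes with an unadjusted p under 0.05, Inha, Foxl2 (147 ± 10.0 and 125 ± 5.91 CPM, without overlap, adjusted p = 0.0776 in edgeR), Amhr2, Gja1 and Hsd17b1 were lower and Inhbb higher. All 4 macrophage and leukocyte genes tested were above 0, among them Lyz2 (5.08 ± 1.84 and 10.9 ± 4.20 CPM, adjusted p = 0.108). The part of such changes in the guidance genes was not tested.

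The promoters of called members are shown because these genes fell together. Sequences are from RefSeq on GRCm38.p6, from 250 bases before to 50 bases after the transcript start, on the gene's strand, and 59 of the 68 members had at least 1 promoter, with 75 in all. Searched on both strands were the cyclic AMP response element spelled TGACGTCA, the AP-1 site spelled TGANTCA and the NR5A half-site spelled AAGGTCA. Also searched were the GC box with the letters GGGCGG, the TATA box with the letters TATAAA and the E-box with the letters CACGTG. None of these motifs contains another, and GC boxes overlap one another in Sema5a. Capitals mark these letters or their reverse complement. Robo2 has several starts and is not printed.

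Plxnc1, chr10:94944796-94945095, minus strand: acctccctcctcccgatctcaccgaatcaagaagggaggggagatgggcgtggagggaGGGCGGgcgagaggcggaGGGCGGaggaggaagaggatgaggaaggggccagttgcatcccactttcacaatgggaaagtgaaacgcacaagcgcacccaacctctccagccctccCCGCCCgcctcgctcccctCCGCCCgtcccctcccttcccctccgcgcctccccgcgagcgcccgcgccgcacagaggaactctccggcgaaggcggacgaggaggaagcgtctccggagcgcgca
Sema4f, chr6:82939720-82940019, minus strand: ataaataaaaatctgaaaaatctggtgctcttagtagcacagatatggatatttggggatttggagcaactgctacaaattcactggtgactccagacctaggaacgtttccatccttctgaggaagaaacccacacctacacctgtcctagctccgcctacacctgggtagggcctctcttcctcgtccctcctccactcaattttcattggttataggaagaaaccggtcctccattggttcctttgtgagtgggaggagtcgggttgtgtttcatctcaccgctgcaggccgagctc
Sema5a, chr15:32244563-32244862, plus strand: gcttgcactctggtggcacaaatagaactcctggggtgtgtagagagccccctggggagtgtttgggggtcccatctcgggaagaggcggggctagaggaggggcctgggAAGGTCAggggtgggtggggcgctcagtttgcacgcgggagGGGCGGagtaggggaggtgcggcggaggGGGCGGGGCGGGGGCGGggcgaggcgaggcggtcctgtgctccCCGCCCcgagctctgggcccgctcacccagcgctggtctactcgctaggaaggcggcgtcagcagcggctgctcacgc
Plxna2, chr1:194619579-194619878, plus strand: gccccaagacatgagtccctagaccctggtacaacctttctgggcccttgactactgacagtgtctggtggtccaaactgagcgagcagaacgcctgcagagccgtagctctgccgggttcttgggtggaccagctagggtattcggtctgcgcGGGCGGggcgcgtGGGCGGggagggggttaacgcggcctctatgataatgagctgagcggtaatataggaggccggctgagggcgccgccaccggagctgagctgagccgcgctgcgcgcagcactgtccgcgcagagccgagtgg

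GC boxes stood in 3 of these 4, and the Sema4f promoter held none of the 6 motifs. A GC box was found in 70.7% of the 75 member promoters, 35.7% of all 32851 promoters and 46.2% of the 21263 promoters of protein-coding genes. G and C made up 69.0% of the Plxnc1, 71.3% of the Sema5a, 64.7% of the Plxna2 and 48.7% of the Sema4f sequence. The other motifs were in few member promoters, with the NR5A half-site in 5.33% (4.72% of all promoters), the AP-1 site in 4.0% (7.81%), the TATA box in 2.67% (13.6%), the E-box in 6.67% (7.15%) and the cyclic AMP element in 1.33% (1.79%). A match of letters is a description of the sequence only.

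The PBS and EM-mGC libraries were both from endometriosis mice, cultured and fresh, and their comparison showed how guidance genes stood in cultured cells. Culture, the experiment, the mice and the depth cannot be told apart in it. Of 66 members tested, 51 were called by edgeR in a fit over all 16 libraries, 20 higher and 31 lower in PBS. These are 77.3% of the members against 71.7% of all genes, of which 31.7% were higher and 40% lower, so the number called is near the background. The size of the changes is the point of interest. Of the 66 members, 24 were called with a change of at least 4-fold and 12 of at least 16-fold. Among all 18484 genes tested the numbers were 4531 (24.5%) and 2180 (11.8%). Some of the largest changes, such as those of Epha10 and Sema5b, rest on almost no reads in PBS. The median log2 fold change of all genes was −0.165 with TMM scaling and −0.429 with upper-quartile scaling, and the direction of the 24 members named below held under both.

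**Figure D5:**
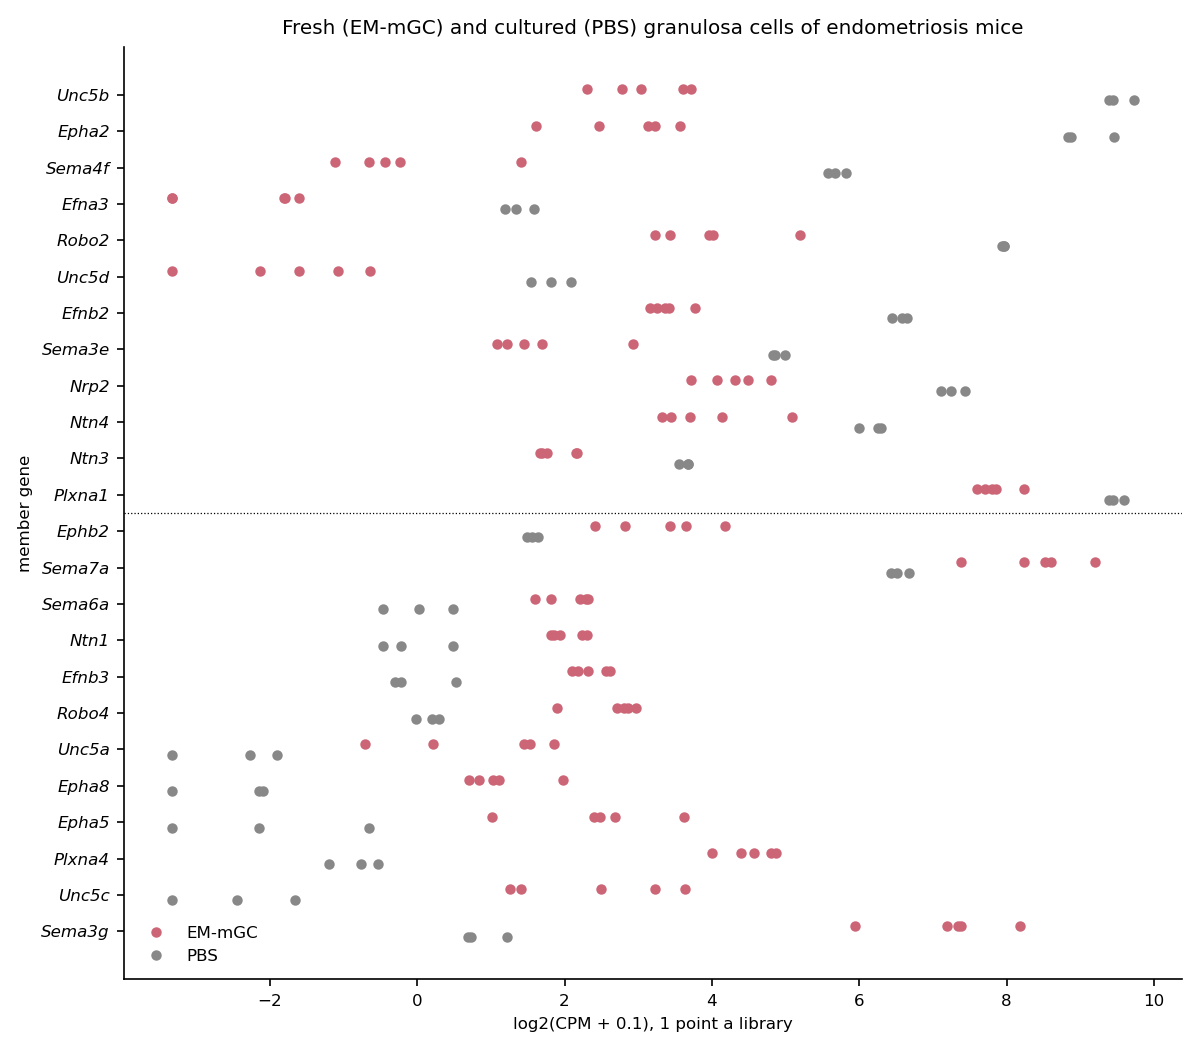
Levels of the 24 named members as log2(CPM + 0.1) in each EM-mGC (n = 5) and PBS (n = 3) library, ordered by log2 fold change, with members that rose above the dotted line and those that fell below it. The 2 groups of libraries lie apart in each row.

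Of 20 semaphorins tested, 12 were called lower and 2 higher. This is a share of 70% against 71.7% of all genes, of which 40% were lower and 31.7% higher. Sema3g, a ligand of Nrp2 known from vessels and fat tissue, was at 166, 291, 146, 61.2 and 162 CPM in EM-mGC and at 1.51, 1.56 and 2.22 in PBS, a log2 fold change of −6.55 (SE 0.47, adjusted p = 3.57e-09 in edgeR). Sema7a fell from 362 ± 152 to 93.2 ± 8.06 CPM (−1.97, SE 0.27) and Sema6a from 4.12 ± 0.886 to 0.946 ± 0.338 (−2.12, SE 0.35). The 2 called higher were Sema4f and Sema3e. Sema4f rose from 0.969 ± 0.897 to 51.5 ± 4.41 CPM (5.69, SE 0.35, and 6.46 without EM-mGC-4). Sema3e rose from 3.51 ± 2.29 to 29.6 ± 1.74 CPM (3.06, SE 0.30). EM-mGC-4 was the highest EM-mGC library for both Sema4f (2.55 CPM) and Sema3e (7.53 CPM).

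Among semaphorin receptors, Plxna4 was at 27.8, 15.8, 20.9, 23.6 and 29.1 CPM in EM-mGC and at 0.593, 0.490 and 0.335 in PBS (−5.65, SE 0.26, adjusted p = 2.17e-11 in edgeR). Plxna1 rose from 231 ± 41.6 to 713 ± 53.4 CPM (1.61, SE 0.13). Nrp2 rose from 19.9 ± 5.56 to 155 ± 18.1 CPM (2.94, SE 0.17), while Nrp1 stood at 24.9 ± 6.50 and 26.1 ± 3.40 and was not called. Nrp2 thus held 83.0% of neuropilin RPKM in PBS, where Nrp1 held 60.2% in EM-mGC. In the annotation, 10.7% of the Plxna1 exon length lies opposite exons of another gene.

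The EphA receptors changed from an even set to a single leader. Epha2, which is known from epithelia, was at 9.28, 2.96, 5.42, 11.7 and 8.67 CPM in EM-mGC and at 704, 456 and 469 in PBS (6.14, SE 0.30, adjusted p = 3.94e-11 in edgeR). It held 25.2% of EphA RPKM in EM-mGC and 97.5% in PBS. Epha5 fell from 6.23 ± 3.74 to 0.220 ± 0.279 CPM (−4.75, SE 0.67, and −6.34 without PBS-2, which held 12 of its 15 PBS counts), Epha8 from 2.21 ± 0.936 to 0.0862 ± 0.0749 (−4.52, SE 0.56) and Ephb2 from 10.7 ± 5.03 to 2.87 ± 0.153 (−1.91, SE 0.33). Of the 8 EphA receptors tested, 5 were called lower and Epha2 alone was called higher, a share of 75% against 71.7% of all genes. Epha4 averaged 7.85 ± 4.30 CPM in EM-mGC and 11.8 ± 1.63 in PBS, and it was called without EM-mGC-2.

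Of the ephrins, 4 of 5 ephrin-A and 2 of 3 ephrin-B ligands were called, 80% and 66.7% against 71.7% of all genes. Efnb2, the ligand of Ephb4 on arteries, was at 10.6, 8.83, 10.1, 9.46 and 13.5 CPM in EM-mGC and at 101, 95.4 and 87.0 in PBS (3.15, SE 0.13, adjusted p = 7.9e-12 in edgeR). Its receptor Ephb4 stood at 57.9 ± 6.59 and 118 ± 3.60 CPM. Efnb3 fell from 5.06 ± 0.820 to 0.936 ± 0.351 CPM (−2.43, SE 0.29). Efna3 rose from 0.121 ± 0.112 to 2.50 ± 0.359 CPM (4.32, SE 0.62), from 9 counts in 5 libraries to 163 in 3, and 14.1% of its exon length lies opposite exons of another gene.

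The 4 Unc5 receptors were all called, 2 higher and 2 lower, against 71.7% of all genes called. Unc5b, a netrin receptor known from vessel tips, was at 12.1, 6.77, 8.09, 4.86 and 13.0 CPM in EM-mGC and at 848, 673 and 696 in PBS (6.35, SE 0.24, adjusted p = 2.01e-12 in edgeR), and it held 99.7% of Unc5 RPKM in PBS. Unc5d rose from 0.256 ± 0.212 to 3.46 ± 0.675 CPM (3.70, SE 0.55). Unc5c fell from 2.31, 9.31, 12.3, 2.55 and 5.53 CPM to 0.216, 0 and 0.0837 (−6.00, SE 0.84), and Unc5a from 2.10 ± 1.26 to 0.0922 ± 0.0852 (−4.42, SE 0.90). Both rested on 6 counts in the 3 PBS libraries, and leaving out single libraries moved Unc5c to −7.01 (without PBS-1) and −5.40 (without PBS-2) and Unc5a to −5.22 (without PBS-3) and −3.83 (without PBS-2).

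Of the ligands of Unc5 receptors, Ntn4, a netrin of basement membranes, rose from 17.0 ± 9.82 to 72.8 ± 8.07 CPM (2.09, SE 0.28) and Ntn3 from 3.66 ± 0.667 to 12.3 ± 0.606 (1.74, SE 0.18). Ntn1 fell from 4.02 ± 0.655 to 0.892 ± 0.358 CPM (−2.17, SE 0.33). Among the Robo receptors, Robo2 was at 15.4, 36.4, 10.7, 9.28 and 16.1 CPM in EM-mGC and at 245, 249 and 249 in PBS (3.80, SE 0.29, adjusted p = 6.23e-09 in edgeR), and Robo4 fell from 6.38 ± 1.60 to 1.02 ± 0.123 CPM (−2.65, SE 0.25). The lead among the Robo receptors passed from Robo1, with 78.0% of the RPKM in EM-mGC, to Robo2, with 70.9% in PBS.

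The promoters of the 2 receptors that rose most and the ligand that fell most are shown, with capitals as above. They are from GRCm38.p6.

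Unc5b, chr10:60831532-60831831, minus strand: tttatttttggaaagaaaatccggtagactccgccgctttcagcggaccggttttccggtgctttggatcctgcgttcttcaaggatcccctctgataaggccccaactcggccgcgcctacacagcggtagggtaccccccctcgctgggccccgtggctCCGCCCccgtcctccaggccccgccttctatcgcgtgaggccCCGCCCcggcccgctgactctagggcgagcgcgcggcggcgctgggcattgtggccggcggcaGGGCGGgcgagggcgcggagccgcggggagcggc
Epha2, chr4:141300971-141301270, plus strand: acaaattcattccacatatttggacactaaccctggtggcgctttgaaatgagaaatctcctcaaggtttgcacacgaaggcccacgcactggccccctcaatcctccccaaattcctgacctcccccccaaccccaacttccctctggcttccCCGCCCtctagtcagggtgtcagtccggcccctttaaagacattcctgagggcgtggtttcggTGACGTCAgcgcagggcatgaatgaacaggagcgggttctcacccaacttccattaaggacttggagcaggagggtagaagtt
Sema3g, chr14:31217623-31217922, plus strand: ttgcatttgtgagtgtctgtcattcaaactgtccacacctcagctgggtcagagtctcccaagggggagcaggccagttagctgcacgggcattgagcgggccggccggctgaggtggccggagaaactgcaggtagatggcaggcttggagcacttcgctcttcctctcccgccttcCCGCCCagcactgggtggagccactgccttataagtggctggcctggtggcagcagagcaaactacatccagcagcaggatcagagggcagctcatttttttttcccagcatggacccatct

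Among the 59 members with a promoter sequence, Epha2 alone held a full cyclic AMP response element, at 33 bases before the start, and it also held a GC box. Unc5b held 3 GC boxes and Sema3g 1. Both Epha2 and Sema3g lacked the TATA box as spelled here.

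In the lists of other pathway genes, 43 of 49 guidance ligands and receptors tested were called, 18 higher and 25 lower, which is 87.8% against 71.7% of all genes. The neurotrophin Bdnf rose from 0.228 ± 0.192 to 53.7 ± 7.17 CPM, and the receptors Flt1 (9.42 ± 4.09 to 0.0279 ± 0.0483) and Kdr (34.7 ± 10.2 to 0.402 ± 0.254), both of endothelial cells, fell, as did the adhesion molecule Nrcam (101 ± 70.6 to 1.16 ± 0.121). Of 100 cytoplasmic effectors tested, 73 were called, a share near that of all genes. By direction 51 were higher and 22 lower, against 31.7% and 40% of all genes. The small GTPase Rras2, a relative of R-Ras, rose from 31.9 ± 8.87 to 386 ± 35.2 CPM, whereas the phosphatase gene Inpp5d (14.3 ± 3.66 to 0.368 ± 0.0671), the exchange factor Ngef (6.16 ± 2.10 to 0.209 ± 0.103) and Ablim3 (2.65 ± 0.972 to 0.147 ± 0.106) fell.

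Markers of most other cell types were lower in the same comparison. All 13 endothelial genes were called lower in PBS, and their total was 10.5, 8.99 and 8.41 CPM, with Cldn5 and Sox17 without a read in the cultured libraries. All 10 oocyte genes were called lower, with a total of 1.35, 1.38 and 1.21 CPM in PBS against 101, 673, 781, 233 and 457 in EM-mGC, and Oosp1, Nlrp5 and Figla had no read in culture. All 12 macrophage and leukocyte genes were called lower (16.8, 18.5 and 19.9 CPM in PBS), as were 7 of 8 neutrophil and 6 of 6 red blood cell genes. The granulosa total was 7427, 7065 and 7679 CPM in PBS, and 11 of 12 granulosa genes were called lower, all of them but Inhba. Among stroma genes 9 of 10 were called lower. Other lists were mixed. The glia and neuron total was higher, at 196, 184 and 173 CPM in PBS against 74.8, 114, 67.5, 63.0 and 74.0 in EM-mGC, with 3 genes called higher, among them Tubb3 (21.7 ± 2.17 to 129 ± 8.83) and Ncam1 (2.96 ± 0.631 to 46.4 ± 5.44), and 6 lower. The smooth muscle and pericyte total was also higher, at 781, 599 and 618 CPM against 324, 159, 354, 199 and 274, with Acta2 (131 ± 53.6 to 626 ± 98.5) the most abundant, although 7 genes of this list were called lower and 2 higher. Krt8 and Krt18 (16.3 ± 6.90 to 96.5 ± 3.89) rose in an epithelial list in which 9 genes fell, and Aldh1a1 (430 ± 110 to 3901 ± 333) in a theca list in which 4 fell. Of the members that ran with a marker total in fresh libraries, Unc5c, Robo4, Plxna4 and Sema3g fell. Plxnd1, which had the highest r with the stroma total and also ran with the endothelial total, was higher in culture, at 102, 110 and 129 CPM in PBS against 73.4, 47.2, 66.0, 61.4 and 70.1 in EM-mGC (0.82, SE 0.12, adjusted p = 1.49e-05 in edgeR). Of the members with a negative relation to a marker total, Ephb6 (log2 fold change 0.74) and Plxnb2 (0.99) were called higher in PBS. Robo1 (−0.53) was called lower, and Sema4b and Sema3b were not called. The part of these cells in the changes was not tested.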

How the data were processed

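Poly(A) RNA from 16 mouse granulosa cell libraries was sequenced with a stranded kit. The deposited values are raw read counts per Ensembl gene in 2 tables. Per the labels, the submitters' processing notes name fastp, HISAT2 and StringTie with GRCm39, and the deposited tables carry featureCounts in their names. Tool versions and the strand setting of counting are not given in the sources used here. No column was left out.

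Counts were tested with edgeR 4.0.16 in R 4.3.3 (filterByExpr, TMM scaling, quasi-likelihood test, Benjamini-Hochberg adjustment over all genes tested, called at adjusted p under 0.05) within each experiment, and for PBS against EM-mGC in a fit over all libraries. DESeq2 1.42.0 was an alternative. Replicates are separate samples by their labels; in the culture experiment 3 paired replicates came from 6 mice, without a statement that equal numbers mark a pair. CPM used TMM library sizes over all 16 libraries, and RPKM the union of exons from GENCODE M21, which is on GRCm38 and gave lengths and exon overlaps only. SE is that of the log2 fold change. No pair of libraries in a group differed by less than the sampling noise: chi-square per degree of freedom was 2.66 or more. Depth and its counting error differ between the experiments.

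Named were all called members up to 24, otherwise the 12 with the largest change in each direction at a mean of at least 1 CPM, or the 6 with the smallest p where fewer than 6 were called, and the family leaders in Con-mGC. From each pathway list up to 4 called genes with the largest change at a mean of at least 1 CPM were named. Other genes, the marker relations, the motifs and the promoters were chosen after values were seen. The members and all lists were chosen with earlier results of these data known. Alternatives changed the tool, scaling, filter, gene set, fold limit, replicate block, libraries and gene length.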

Additional observations from a re-analysis of the deposited data

Results flagged for a closer look

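Among 102 groups of 5 fresh libraries examined, of which chance sets apart about 5%, 12 held a library far from the other 4. EM-mGC-2 stood high for Robo2 (36.4 CPM, the others 9.28 to 16.1), Robo1 (203 CPM, the others 105 to 133), Sema3b (50.5 CPM, the others 37.1 to 40.2) and glia and neuron markers (114 summed CPM, the others 63.0 to 74.8). EM-mGC-4 stood high for Sema3e (7.53 CPM, the others 2.01 to 3.13) and Sema4f (2.55 CPM, the others 0.363 to 0.754). Epha8 was high in EM-mGC-1 (3.84 CPM, the others 1.53 to 2.06), Ephb2 in Con-mGC-2 (22.3 CPM, the others 13.0 to 15.3) and Sema4f in Con-mGC-1 (0.656 CPM, the others 0.272 to 0.347). Con-mGC-3 stood high for macrophage and leukocyte markers (469 summed CPM, the others 235 to 284) and neutrophil markers (56.1 summed CPM, the others 6.36 to 11.5), and EM-mGC-3 for red blood cell markers (16016 summed CPM, the others 2436 to 5652).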

How the results depend on the processing

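The 5 members called in EET against PBS were also called with DESeq2, RLE and upper-quartile scaling, a minimum of 10 counts in every library and protein-coding genes only; 12 were called with no filter on low counts (2.45% of all genes, against 1.22%), with Nrp2 higher, 0 when a log2 change of 1 or more was also asked for (9 genes in all), and 0 to 9 when single libraries were left out (48 to 436 genes in all). Of the other pathway genes 6 were called there, against 15 with no filter, 0 with the fold limit and 3 to 12 when single libraries were left out. In EM-mGC against Con-mGC 1 other pathway gene was called with DESeq2 and 0 by edgeR. In PBS against EM-mGC 116 other pathway genes were called, and 72 with the fold limit; upper-quartile scaling gave 19 members higher and 34 lower where TMM gave 20 and 31, and for all genes 4242 of 13284 calls higher where TMM gave 5853 of 13251. No named gene turned its direction. With EET in place of PBS against EM-mGC, the log2 fold change was −6.97 for Epha5, −3.89 for Epha8, −3.15 for Ntn1, −6.39 for Plxna4, −3.25 for Unc5a and 2.73 for Unc5d, each over 1.5 times from the value with PBS. Highest members per family changed in 5 of 44 cases when the longest transcript was the length.

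The labels do not say that equal replicate numbers mark a pair, so the numbers were not taken as pairs. Deviations of libraries with equal replicate numbers correlated at −0.301 to 0.183 in the fresh and −0.0584 to 0.194 in the cultured groups. These values cannot settle the pairing, as they are taken over all genes tested in few libraries. With the replicate block, 5 members and 12 other pathway genes were called in EET against PBS. Calls among all genes also rose there, from 184 (1.22%) to 341 (2.27%). In EM-mGC against Con-mGC the block gave 0 members and 2 genes in all. The fold changes of members with few counts, such as Unc5c in culture, rest on few reads.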
